A study of Drosophila melanogaster with 12 samples.

Results

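The genes described here encode structural proteins of the cuticle in Drosophila melanogaster, and they were taken by FlyBase symbol: symbols starting with Cpr and a digit, Lcp, Ccp84A, Acp65A, Twdl, Pcp or Edg. The reference gene names hold 125 such symbols, and 103 of them had a row in the deposited table of 10893 genes. By family these were 57 Cpr, 21 Twdl, 14 Lcp, 7 Ccp84A, 2 Edg, 1 Pcp and 1 Acp65A genes. The other 22 (13 Cpr, 5 Twdl, 3 Lcp and 1 Edg gene) were not analysed here.

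All 12 libraries held polyadenylated RNA of the strain w[11-18] grown at 25°C. Whole larvae and whole eye-antennal discs, the larval epithelia that give rise to the adult eye, antenna and head capsule, were taken 72, 96 and 120 h from egg laying, each within 1 h, and whole discs also at white puparium formation (WPP). Discs that kept their cuticular mouthparts were sampled at 72 h, and the eye and antenna parts, taken apart, at 96 and 120 h. Each of the 12 groups held 1 library, the number of animals behind a library was not given, and the whole disc includes both parts.

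The insect cuticle is built from chitin fibres and a large set of secreted proteins, which the epidermis makes anew for every larval, pupal and adult cuticle. Most members of the Cpr, Lcp and Ccp84A families carry the Rebers-Riddiford consensus, a stretch that binds chitin, and Pcp, Edg78E and Acp65Aa belong to the same large class. The Tweedle (Twdl) proteins form a separate family, known from dominant mutations that make larvae and pupae short and stout. The Lcp proteins were first isolated from third-instar larval cuticle, Pcp from pupal cuticle, and the Edg genes as ecdysone-dependent genes of imaginal discs. Many of these genes lie beside each other in tandem arrays, such as the Ccp84A genes within the Antennapedia complex and the large array at cytological position 65A. No sequences are printed, because the reference used here held names and gene models only.

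Values are FPKM, fragments scaled to transcript length and library size, so levels can be set side by side between genes. Differences are given as log2(FPKM + 1), which understates the change of low genes. With 1 library per group, comparisons of a pair of libraries have no test: a gene counts as higher or lower past a difference of 1 on that scale (2-fold) if the larger value reached 5 FPKM. A bulk library cannot tell fewer cells of a type from less RNA per cell.

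Cuticle protein transcripts were abundant in whole larvae and scarce in late discs. Together the 103 genes made up 5.29%, 8.53% and 3.5% of the summed FPKM in whole larvae at 72, 96 and 120 h. The share was 1.91% in the discs with mouthparts and 0.726% in the discs without them at 72 h. It was 0.0965%, 0.0482% and 0.0410% in whole discs at 96 h, at 120 h and at WPP. At least 5 FPKM was reached by 88 of the 103 genes in the larva at 72 h and by 14 in the disc at WPP. The highest cuticle gene was the 4th highest of all genes in the larva at 72 h and the 820th in the WPP disc.

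Most cuticle genes peaked at 72 h, either in the whole larva or in the discs with mouthparts. The highest of the 12 values was in the larva at 72 h for 44 genes (42.7%), in the discs with mouthparts for 33 (32.0%), in the larva at 96 h for 11 and in the larva at 120 h for 6. Over all 10893 genes these libraries held the highest value of 11.4%, 8.59%, 4.13% and 16.0%. The remaining 9 genes had their highest value in a disc or disc-part library without mouthparts. In the cluster numbers of the authors' deposited table cluster 6 held 68 of the 103 genes (66%) and 14.7% of all genes.

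**Figure D1:**
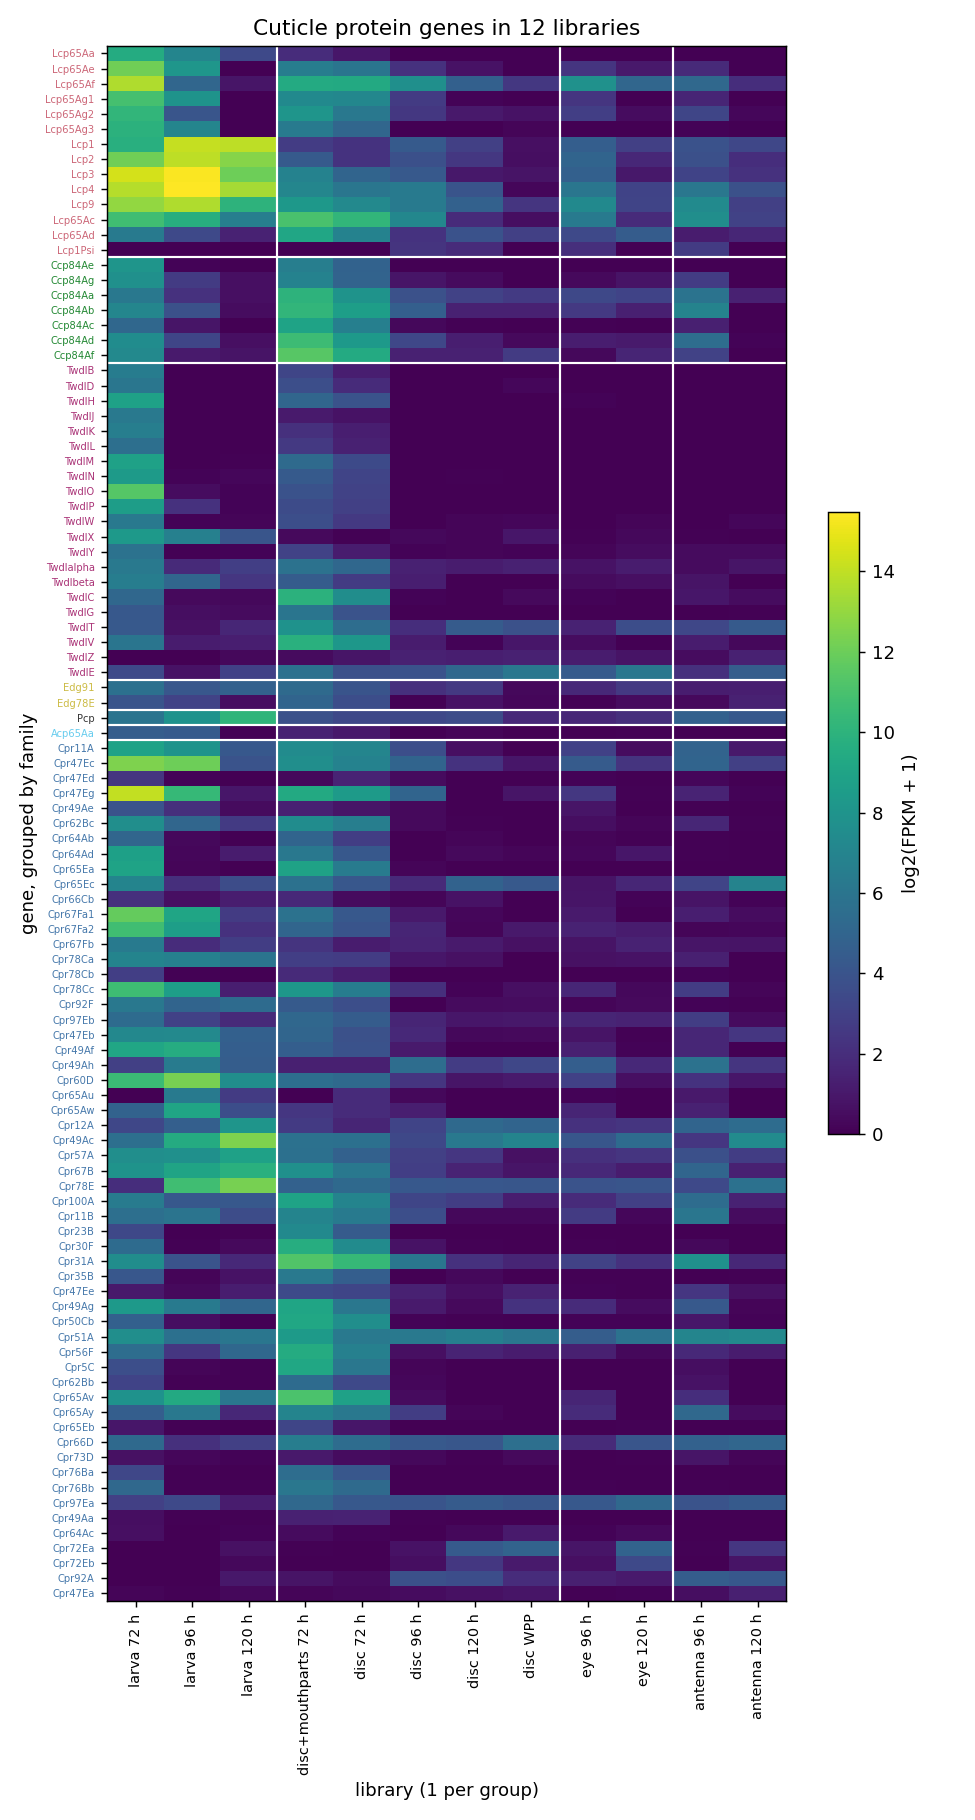
Levels of the 103 cuticle protein genes, as log2(FPKM + 1), in the 12 libraries (columns, 1 library each), with rows grouped by family and label colours marking the family. The brightest cells are Lcp genes in whole larvae, reaching 45271 FPKM for Lcp4 at 96 h, and most rows are dark in discs from 96 h on.

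**Figure D2:**
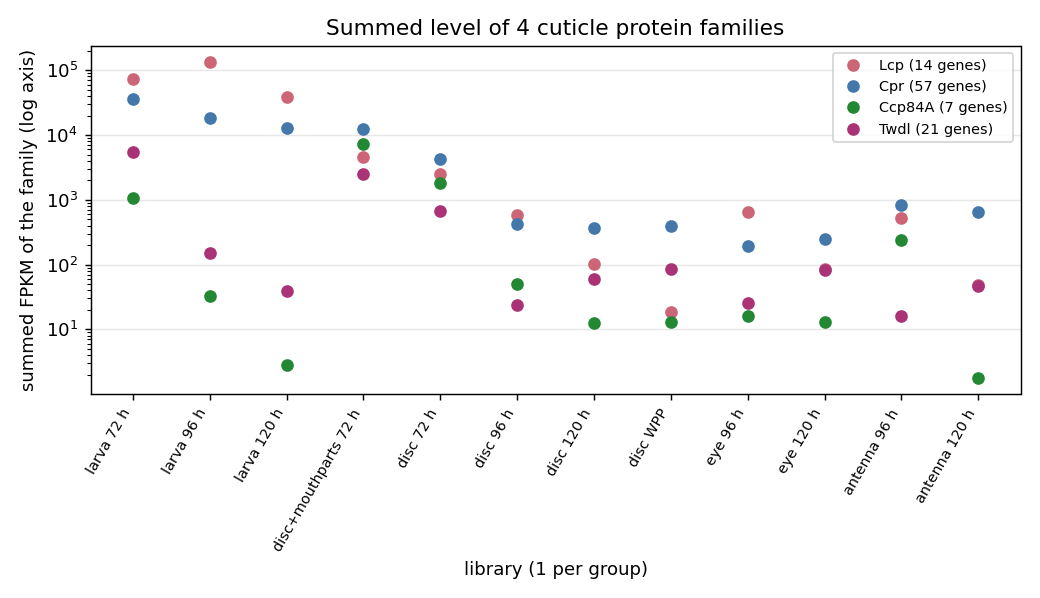
Summed FPKM of the Lcp, Cpr, Ccp84A and Twdl families in each library, on a log axis, with 1 point per family and library. The Ccp84A sum is highest in the discs with mouthparts, at 7229 FPKM, and the Lcp sum in the larva at 96 h, at 135091 FPKM; in the eye and antenna parts at 120 h the Lcp point is hidden behind a Twdl point of nearly the same value.

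Whole larvae were compared across ages to follow the cuticle genes over time, with the instar at each age not given. At 96 h against 72 h, 14 cuticle genes were higher and 64 lower by the size rule, against 6.67% and 11.8% of all genes. The lower group took in all 7 Ccp84A genes, 20 of 21 Twdl genes, 28 of 57 Cpr genes and 8 of 14 Lcp genes. The higher group held 10 Cpr genes, the 3 genes Lcp1, Lcp2 and Lcp4, and Pcp. The families therefore did not move as 1 block in the larva.

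The Tweedle genes had the sharpest step. TwdlO stood at 2679 FPKM in the larva at 72 h, 0.399 at 96 h and 0.114 at 120 h. TwdlM was at 460.2, 0.0235 and 0.0669, and TwdlH was at 459.6 and then listed at 0 at both later ages. A run of 10 neighbouring Tweedle genes (TwdlB, D, H, J, K, L, M, N, O and P) was lower in all 10, with differences between -10.90 and -5.59 on the log2 scale. TwdlX, outside that run, had values of 325, 106 and 16.1 FPKM, a slower decline. Twdlbeta was at 94.4, 33.8 and 4.43.

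The Ccp84A genes were also early in the larva. Ccp84Ae stood at 264 FPKM at 72 h and 0.106 at 96 h, Ccp84Ag at 220 and 5.48, Ccp84Ad at 182 and 8.56, and Ccp84Af at 155 and 1.13. Ccp84Ab, Ccp84Aa and Ccp84Ac were at 136, 73.3 and 34.3 FPKM at 72 h, and at 13.4, 3.65 and 0.817 at 96 h. All 7 were under 1 FPKM at 120 h.

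The Lcp family split by chromosomal array, although single values of its near-identical copies (Lcp1 with Lcp2, Lcp3 with Lcp4, and the Lcp65Ag genes) are uncertain. Lcp4 stood at 13996 FPKM at 72 h, 45271 at 96 h and 10577 at 120 h, and Lcp3 was at 22865, 42863 and 4189. Lcp1 was at 861, 17312 and 15555, and Lcp2 at 4353, 15470 and 6591. These 4 neighbours peaked at 96 h, and Lcp9 did so too, at 7991, 12518 and 1009 FPKM. The Lcp65A genes, in contrast, had their highest larval value at 72 h: Lcp65Af stood at 12797, 32.7 and 0.861 FPKM, and Lcp65Ae at 4507, 274 and under 0.001. Lcp65Ac had the slowest decline of them, at 1704, 826 and 96.6, and Lcp65Aa was at 744, 129 and 9.44.

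The Cpr genes held early, middle and late members. Cpr47Eg, the highest Cpr gene of any library, stood at 17275 FPKM at 72 h, 1317 at 96 h and 0.943 at 120 h, and its neighbour Cpr47Ec at 5770, 4226 and 14.7. Cpr65Ea was at 511 FPKM at 72 h and 0.138 at 96 h, and Cpr64Ad at 449 and 0.189. Middle members included Cpr60D at 1517, 5017 and 197 FPKM, Cpr65Aw at 28.6, 546 and 11.7, and Cpr49Ah at 6.52, 85.1 and 22.9. Cpr65Au was listed at 0 at 72 h and stood at 83.1 and 5.48 FPKM afterwards. Cpr65Au and Cpr65Aw lie in the 65A array, which was not early as a whole. Of its 13 measured genes 4 were higher and 8 lower at 96 h against 72 h, against 6.67% and 11.8% of all genes.

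At 120 h against 96 h, 9 cuticle genes were higher and 39 lower in the larva, against 18.8% and 6.18% of all genes. All 13 measured members of the 65A array were lower, with differences between -8.10 and -1.92 on the log2 scale. The log2 difference was -9.41 for Cpr47Eg, -8.07 for Cpr47Ec and -7.38 for Cpr78Cc, which went from 401 to 1.41 FPKM. It was -4.98 for Cpr49Af, at 765 and 23.3 FPKM.

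A small late set ran the other way. Cpr49Ac stood at 49.6, 744 and 5634 FPKM at 72, 96 and 120 h, and Cpr78E at 3.11, 1693 and 4955. Pcp, the pupal cuticle protein gene, was at 62.1, 233 and 1116, though its span lies opposite that of Gart and the strand setting of the counts is unknown. Cpr12A was at 8.93, 24.9 and 265 FPKM, and Cpr57A at 201, 215 and 457. Cpr67B, at 245, 525 and 891 FPKM, was also highest at 120 h, but that step was under 2-fold. The other genes past the rule were Cpr56F at 34.5 FPKM from 4.45, Cpr65Ec at 11.0 from 3.24, TwdlE at 7.04 from 0.667 and Twdlalpha at 6.35 from 2.65. The 3 genes of the remaining small families were not among them: Acp65Aa, named for adult cuticle, stood at 22.9, 19.6 and 0.0448 FPKM, Edg78E at 15.2, 7.31 and 0.460, and Edg91 at 52.3, 17.1 and 26.7. The median difference of all genes at this step was 0.61 at 5 FPKM or more and 0.03 after median-ratio scaling, which left 6 cuticle genes higher and 43 lower.

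**Figure D3:**
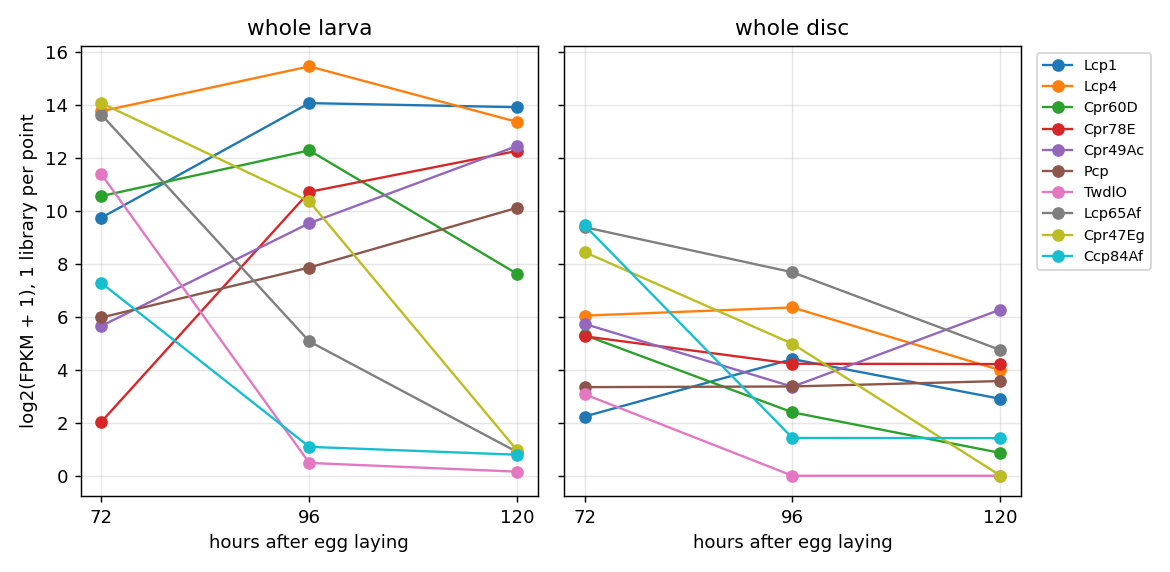
Levels of 10 cuticle protein genes as log2(FPKM + 1) against hours after egg laying, in whole larvae (left) and whole discs (right), with 1 library per point. In larvae TwdlO, Lcp65Af and Cpr47Eg start high and drop, Lcp4 and Cpr60D peak at 96 h, and Cpr49Ac, Cpr78E and Pcp are highest at 120 h.

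The discs with mouthparts were set against discs without them at 72 h to see what the attached head cuticle adds. All cuticle genes past the size rule were higher with the mouthparts: 52 higher and 0 lower, against 6.62% and 1.2% of all genes. They were 24 Cpr, 13 Twdl, all 7 Ccp84A, 6 Lcp and both Edg genes. The ratio between the libraries had a median of 2.64 (quartiles 1.75 and 3.98, range 0.725 to 8.39) over the 73 cuticle genes with at least 5 FPKM in both, and of 0.931 over 7357 genes of all kinds.

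Cpr5C had the highest ratio, with 583 FPKM with mouthparts and 69.5 without. Cpr23B was at 160.0 and 20.6 FPKM, Cpr49Ag at 543 and 70.4, Cpr56F at 727 and 106, and Cpr65Ea at 481 and 84.2. Among the other families, Ccp84Ad stood at 1574 and 314 FPKM, Ccp84Af at 2803 and 705, TwdlC at 981 and 194, TwdlT at 231 and 45.4, and Lcp65Ad at 565 and 115.5. In the discs without mouthparts Cpr31A, at 1328 FPKM, and Lcp65Ac, at 1174, were the highest. Of the 103 genes 7 had a lower value with the mouthparts, such as Cpr78E at 27.2 against 37.6 FPKM, but none of them passed the rule. Edg78E was at 31.0 FPKM with and 11.7 without mouthparts, and Edg91 at 39.1 and 14.9. The summed level of 11 muscle genes was also higher with the mouthparts, at 13646 FPKM against 7928, and 27496 in the whole larva. Its part in the cuticle difference was not tested.

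The mouthpart library and the whole larva at 72 h differed in the levels of many cuticle genes, a comparison added after the values had been seen. At least 1 FPKM was reached by 93 of the 103 genes in the former and by 92 in the latter. By the size rule 29 cuticle genes were higher and 47 lower in the discs with mouthparts, against 33.5% and 11.3% of all genes. The median over all genes at 5 FPKM or more was 0.80, so a difference near that size sets no gene apart, and with median-ratio scaling the cuticle counts were 26 and 56.

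The counts are given by family. Of the Ccp84A genes 5 were higher and 1 lower: Ccp84Af stood at 2803 FPKM against 155 in the larva, Ccp84Ad at 1574 against 182, Ccp84Ab at 1143 against 136, Ccp84Aa at 1008 against 73.3 and Ccp84Ac at 491 against 34.3. Their neighbours Ccp84Ae, at 95.2 against 264, and Ccp84Ag, at 116 against 220, had lower values in the mouthpart library. All 10 Tweedle genes of the long run were lower, with differences between -7.47 and -2.37 on the log2 scale; TwdlO stood at 14.1 against 2679 FPKM and TwdlH at 33.2 against 459.6. Of the 11 Tweedle genes elsewhere, 5 were higher and 4 lower. The higher ones were TwdlC at 981 against 34.4 FPKM, TwdlV at 918 against 62.9, TwdlT at 231 against 19.1, TwdlG at 62.6 against 18.3 and TwdlE at 52.5 against 9.60. The lower ones were TwdlX at 0.298 against 325 FPKM, TwdlW at 12 against 74.0, TwdlY at 7.22 against 56.4 and Twdlbeta at 21.2 against 94.4.

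Of the 14 Lcp genes 11 were lower in the mouthpart library. Lcp3 stood at 113 FPKM against 22865, Lcp4 at 136 against 13996, Lcp2 at 20.2 against 4353, Lcp1 at 5.77 against 861, and Lcp65Aa at 2.84 against 744. Lcp65Ad was the exception, higher at 565 against 77.6 FPKM, and Lcp65Ac was close in both, at 2063 and 1704. Lcp1Psi, annotated as a pseudogene, was listed at or near 0 in both.

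Of the 57 Cpr genes 18 were higher and 19 lower, against 33.5% and 11.3% of all genes. Higher genes included Cpr5C at 583 FPKM against 12.4, Cpr50Cb at 605 against 26.2, Cpr30F at 799 against 40.7, Cpr31A at 2474 against 190.2 and Cpr65Av at 2190 against 234. Lower genes included Cpr47Eg at 677 against 17275 FPKM, Cpr47Ec at 199 against 5770, Cpr67Fa1 at 55.1 against 3584 and Cpr60D at 46.6 against 1517. Of the small families Acp65Aa and Pcp were lower, at 1.74 against 22.9 and 13.4 against 62.1 FPKM, and neither Edg gene passed the rule.

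**Figure D4:**
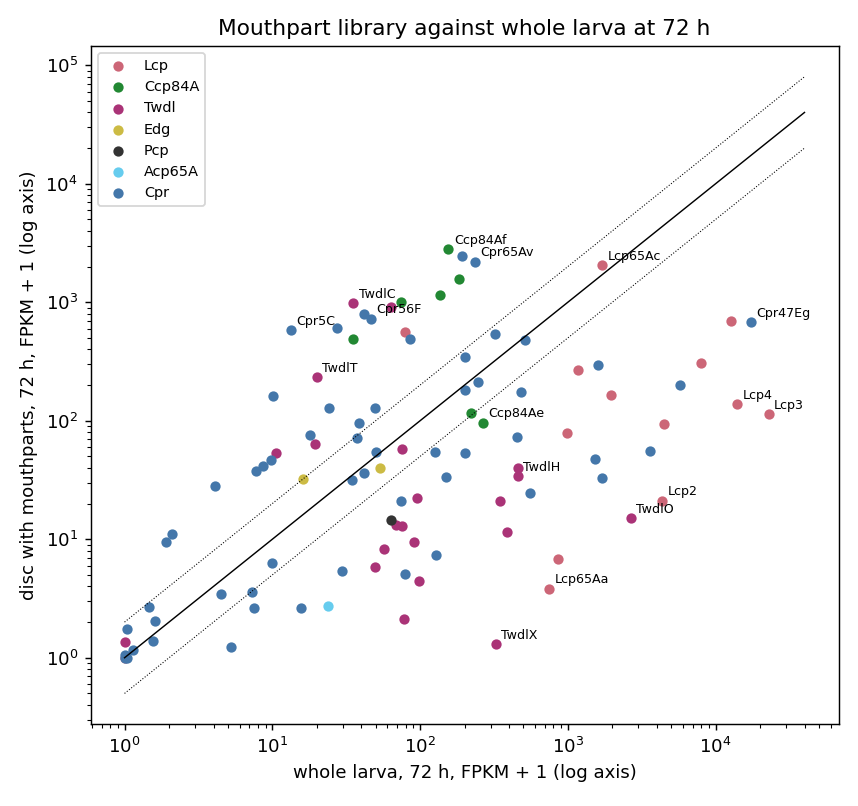
FPKM + 1 of each cuticle protein gene in the discs with mouthparts (y) against the whole larva (x) at 72 h, both on log axes, coloured by family, with equality as a solid line and 2-fold limits dotted. Ccp84Af, Cpr65Av and TwdlC lie above the limits, and Lcp3, Lcp4, TwdlO and TwdlX lie far below them.

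In whole discs most of these transcripts were far lower a day later. At 96 h against 72 h, 67 cuticle genes were lower and 5 higher, against 7.96% and 3.62% of all genes. All 7 Ccp84A genes, both Edg genes, 38 Cpr, 12 Twdl and 8 Lcp genes were lower. Cpr65Av stood at 458 FPKM at 72 h and 0.350 at 96 h, Ccp84Af at 705 and 1.69, Cpr50Cb at 200.5 and 0.0897, TwdlC at 194 and 0.125, and TwdlV at 295 and 1.23. Lcp65Af and Lcp65Ac kept the highest levels of the lower genes, at 205 and 139 FPKM at 96 h.

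Over this step 6 cuticle genes were lower in the disc while they were higher in the larva, against 0.964% of all genes with opposite differences. From 96 to 120 h the larva and the disc differed in direction for Lcp65Ad (0.312% of all genes), and the eye and antenna parts for Cpr100A (0.367%). The 5 genes that were higher in the disc at 96 h were Cpr49Ah at 45.8 FPKM from 1.57, Cpr92A at 13.0 from 0.374, Cpr12A at 8.01 from 1.99, and Lcp1 and Lcp2 at 20.2 and 13.0 from 3.72 each. Lcp1 and Lcp2 were at 17312 and 15470 FPKM in the larva of that age. The summed muscle genes were at 7928 FPKM in the disc at 72 h and 2427 at 96 h, and 7 fat body genes at 536.5 and 165. By the size rule 8 of 11 muscle genes were lower and 0 higher, but 3 fat body genes were lower and 2 higher. Over all genes 7.96% were lower and 3.62% higher. Whether the muscle and fat body genes share a source with the cuticle transcripts was not tested.

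Whole discs were compared with whole larvae at matched ages in a limma fit, in which the scatter between ages is the error. Of 95 cuticle genes tested 8 were higher and 25 lower in the disc at a Benjamini-Hochberg adjusted p under 0.05, against 35.9% and 14.2% of 9993 genes. The fit median of all genes was 0.62, and after median-ratio scaling 0 cuticle genes were higher and 29 lower, so the calls for higher genes depend on the scaling. The lower genes were 13 Cpr, 6 Lcp, 3 Twdl, 1 Ccp84A and 1 Edg gene and Pcp.

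The lowest estimates were those of the neighbours Lcp1, Lcp2, Lcp3 and Lcp4. Lcp3 differed by -10.54 (SE 0.44, limma adjusted p = 1.17e-06), with disc values of 31.0, 18.6 and 0.987 FPKM at 72, 96 and 120 h. Lcp2 differed by -10.06 (SE 0.38) and stood at 3.72, 13.0 and 4.57 FPKM in discs. Lcp1 differed by -9.40 and Lcp4 by -8.74, and Lcp9, which lies elsewhere, by -6.04. These 5 genes were named for their low estimates, and the disc values of each lay below all its larval values. The share of all genes with such a gap is not given here.

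Among Cpr genes, Cpr78Ca differed by -5.12 (SE 0.38, limma adjusted p = 2.2e-05), with 5.64, 0.936 and 0.616 FPKM in discs against 128, 108 and 61.7 in larvae. Cpr60D differed by -7.30, Cpr49Af by -6.10, Cpr57A by -4.71, Cpr47Eb by -4.43, Cpr92F by -4.16 and Cpr49Ag by -4.03. In the other families the estimate was -4.56 for Pcp, -6.19 for TwdlX, -3.38 for Twdlbeta, -2.0 for Edg91 and -1.63 for Ccp84Ag. The Ccp84Ag call ended with median-ratio scaling, no filter or a pseudocount of 5, and without any of the 4 libraries of 72 and 96 h. The TwdlX call ended without the disc at 96 h, that of Pcp without the disc or larva at 96 h, and that of Cpr49Ag without the disc or larva at 120 h. TwdlX passed the filter only through the larvae, as it was at most 0.245 FPKM in these discs, and its call held with no filter. Among the other calls named here, Cpr78Ca, Cpr92F and Ccp84Ag also needed the larvae to pass. In discs only their values at 72 h reached 1 FPKM. The calls of Cpr78Ca and Cpr92F held with no filter. Acp65Aa, at -2.59 (SE 1.00, limma adjusted p = 0.0944), did not pass.

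The 8 genes called higher in discs without rescaling were Cpr92A at 2.27, Ccp84Aa at 1.93, TwdlE at 1.91, TwdlT at 1.80, Cpr31A at 1.79, Cpr97Ea at 1.74, Cpr66D at 1.18 and Ccp84Ab at 1.09. Of these 8 calls, those of TwdlT and Ccp84Aa held with each library left out in turn. The Cpr97Ea call ended without the disc or larva at 120 h, that of Cpr92A without the larva at 96 or at 120 h, that of Cpr31A without a library of 72 or 96 h, and those of TwdlE and Cpr66D without a library of 96 or 120 h. The Ccp84Ab call ended without a library of 72 or 96 h or the disc at 120 h. Cpr97Ea stood at 18.1, 15.3 and 20.9 FPKM in discs against 6.74, 9.48 and 1.28 in larvae. Cpr92A was at 0.374, 13.0 and 11.7 FPKM in discs against 0.0388, 0.0399 and 0.994 in larvae. It passed the filter only through the discs at 96 and 120 h, and without either of them it was not tested. With no filter its call held. The values of Cpr66D overlapped between discs and larvae, at 44.0, 18.6 and 16.3 against 37.6, 3.37 and 6.76.

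A second limma fit, over eye, antenna and whole-disc libraries, set 120 h against 96 h to find what changed before pupariation. Of 56 cuticle genes tested 1 rose and 7 fell, against 0.947% and 1.17% of 9081 genes tested. The genes that fell were Lcp65Ac, Cpr11A, Cpr49Ah, Lcp65Af, Lcp4, Cpr47Ec and Lcp65Ag1, and the gene that rose was Cpr72Ea. The other 47 genes did not reach 1 FPKM in 2 of these libraries and were not tested, among them Acp65Aa, Edg78E, 3 Ccp84A genes and 16 Twdl genes.

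Lcp65Ac fell from 80.6, 196 and 139 FPKM at 96 h (eye, antenna and whole-disc libraries, in this order from here on) to 2.73, 7.24 and 2.78 at 120 h, a log2 change of -4.75 (SE 0.19, limma adjusted p = 0.00265). Lcp65Af fell by 2.96 (SE 0.15, limma adjusted p = 0.00308), from 228, 36.7 and 205 FPKM to 33.6, 3.10 and 25.9. Both genes belong to the 65A array, yet they had their highest values in different parts of the disc. Cpr49Ah fell by 3.03, from 23.5, 56.8 and 45.8 FPKM to 2.5, 4.12 and 5.75. Lcp4 fell by 2.55 and Cpr47Ec by 2.29, Cpr11A changed by -3.13, and Lcp65Ag1 changed by -2.17 (SE 0.31, limma adjusted p = 0.0453). Lcp65Ag1 passed the filter only through its values at 96 h, and its call ended with no filter. Cpr11A, at 0.447, 1.08 and 0.536 FPKM at 120 h, also needed its values at 96 h to pass. Its call held with no filter.

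Cpr72Ea rose by 3.37 (SE 0.37, limma adjusted p = 0.0255), from 0.869, 0.0430 and 0.667 FPKM to 29.9, 4.52 and 20.2. It passed the filter of 1 FPKM in 2 libraries only through the age at which it was high, and its call held with no filter. Cpr72Ea was at most 0.590 FPKM in the 3 larval libraries. Its neighbour Cpr72Eb, which was at 0.524, 0 and 0.519 FPKM at 96 h, stood at 9.82, 0.774 and 4.80 at 120 h and was not past the test. TwdlE and TwdlT had estimates of 1.81 (SE 0.26, limma adjusted p = 0.0505) and 1.91 (SE 0.29, limma adjusted p = 0.0553), just short of the threshold.

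Other genes with large estimates did not pass. Cpr49Ac was at 16.6, 4.38 and 9.30 FPKM at 96 h, and at 42.1, 174 and 76.7 at 120 h, an estimate of 3.08 (SE 0.92, limma adjusted p = 0.273). Cpr65Ec went from 0.750, 7.93 and 2.54 FPKM to 2.14, 118 and 28.6, an estimate of 2.55 (SE 0.69, limma adjusted p = 0.215). For both, the value at 120 h was above that at 96 h in all 3 tissues. Ccp84Ab and Cpr31A were lower at 120 h in the antenna part, at 0.0395 against 121 and 2.33 against 214 FPKM, with estimates of -3.77 (SE 1.43, limma adjusted p = 0.351) and -3.60 (SE 1.32, limma adjusted p = 0.349).

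No call of this fit held with either eye library left out. That loss took in genes of all kinds, so it cannot be read as a trait of the cuticle genes in the eye part. The median estimate of the cuticle genes tested was -1.41 without the eye part at 96 h or at 120 h, and -1.21 with all libraries. Without the antenna part at 96 h or at 120 h more cuticle genes were called. Over the same age step the summed muscle genes stood at 818, 5341 and 2427 FPKM at 96 h and at 334, 622 and 480.1 at 120 h. Of the sums at 120 h Tm1 alone made up 294, 364 and 277 FPKM. In this fit limma called 6 of 11 muscle genes and 4 of 7 fat body genes lower at 120 h and 0 higher, against 1.17% and 0.947% of all genes tested. Their part in the fall of the cuticle genes was not tested.

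The same fit set the eye against the antenna part, to see which cuticle genes mark a territory. Lcp65Af and Lcp65Ad were higher in the eye part and Cpr92A, Pcp and Cpr51A lower, so 2 and 3 of 56 genes tested, against 1.75% and 1.39% of 9081. Lcp65Af differed by 2.84 (SE 0.18, limma adjusted p = 0.00527), and its 4 values, 228 and 33.6 FPKM in the eye part against 36.7 and 3.10 in the antenna part, overlapped across ages. Lcp65Ad stood at 9.58 FPKM at 96 h and 21.6 at 120 h in the eye part, against 1.31 and 2.22, a difference of 2.51 (SE 0.33, limma adjusted p = 0.0286).

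Cpr92A stood at 23.0 and 18.5 FPKM in the antenna part at 96 and 120 h and at 1.58 and 1.15 in the eye part, a difference of -3.20 (SE 0.18, limma adjusted p = 0.00447). Pcp was at 27.2 and 18.0 FPKM against 2.34 and 3.29, a difference of -2.61 (SE 0.28, limma adjusted p = 0.0164). Cpr51A was at 129 and 156 FPKM against 22.5 and 55.9, a difference of -1.97 (SE 0.29, limma adjusted p = 0.0408). For these 3 genes, named because they passed the test, both antenna values lay above both eye values. How many of all genes did so is not given here. All 5 calls ended without either eye library, and the Cpr51A call also without the antenna part at 96 h or either whole disc. With no filter, or with eBayes without trend and robust, the calls of Cpr51A and Lcp65Ad ended. The Cpr51A call also ended with median-ratio scaling and that of Lcp65Ad with a pseudocount of 5. Limma also called 5 of 11 muscle genes lower in the eye part, whose summed levels were 818 and 334 FPKM against 5341 and 622. The part of these markers in the cuticle difference was not tested.

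At a single age the parts can be compared only by size. By the size rule 24 cuticle genes were lower and 6 higher in the eye part at 96 h, against 5.23% and 3.52% of all genes. At 120 h 9 were lower and 7 higher, against 3.4% and 4.99%. Examples of the lower genes at 96 h, named after their values were seen, are 3 Ccp84A and 3 Cpr genes: Cpr31A stood at 214 FPKM against 7.30 in the eye part, Ccp84Ab at 121 against 4.81, Cpr11B at 67.0 against 5.52, Ccp84Aa at 58.7 against 9.10, Ccp84Ad at 45.8 against 1.33 and Cpr100A at 44.1 against 2.72. By 120 h these 6 genes were at most 2.33 FPKM in the antenna part. The genes with the highest values in the antenna part were then Cpr49Ac at 174 FPKM, Cpr51A at 156, Cpr65Ec at 118 and Cpr78E at 53.5. In the eye part at 120 h they were TwdlE at 68.0 FPKM, Cpr51A at 55.9, Cpr49Ac at 42.1 and Cpr97Ea at 35.9.

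The whole disc contains both parts, and its cuticle values mostly lay between theirs. Of 41 cuticle genes with at least 5 FPKM in 1 of the 3 libraries at 96 h, 33 (80.5%) had a whole-disc value between those of the parts, and 18 of 24 (75%) did at 120 h. The share over all genes was 42.9% and 35.5%. Lcp4 and Lcp9 lay outside at both ages.

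**Figure D5:**
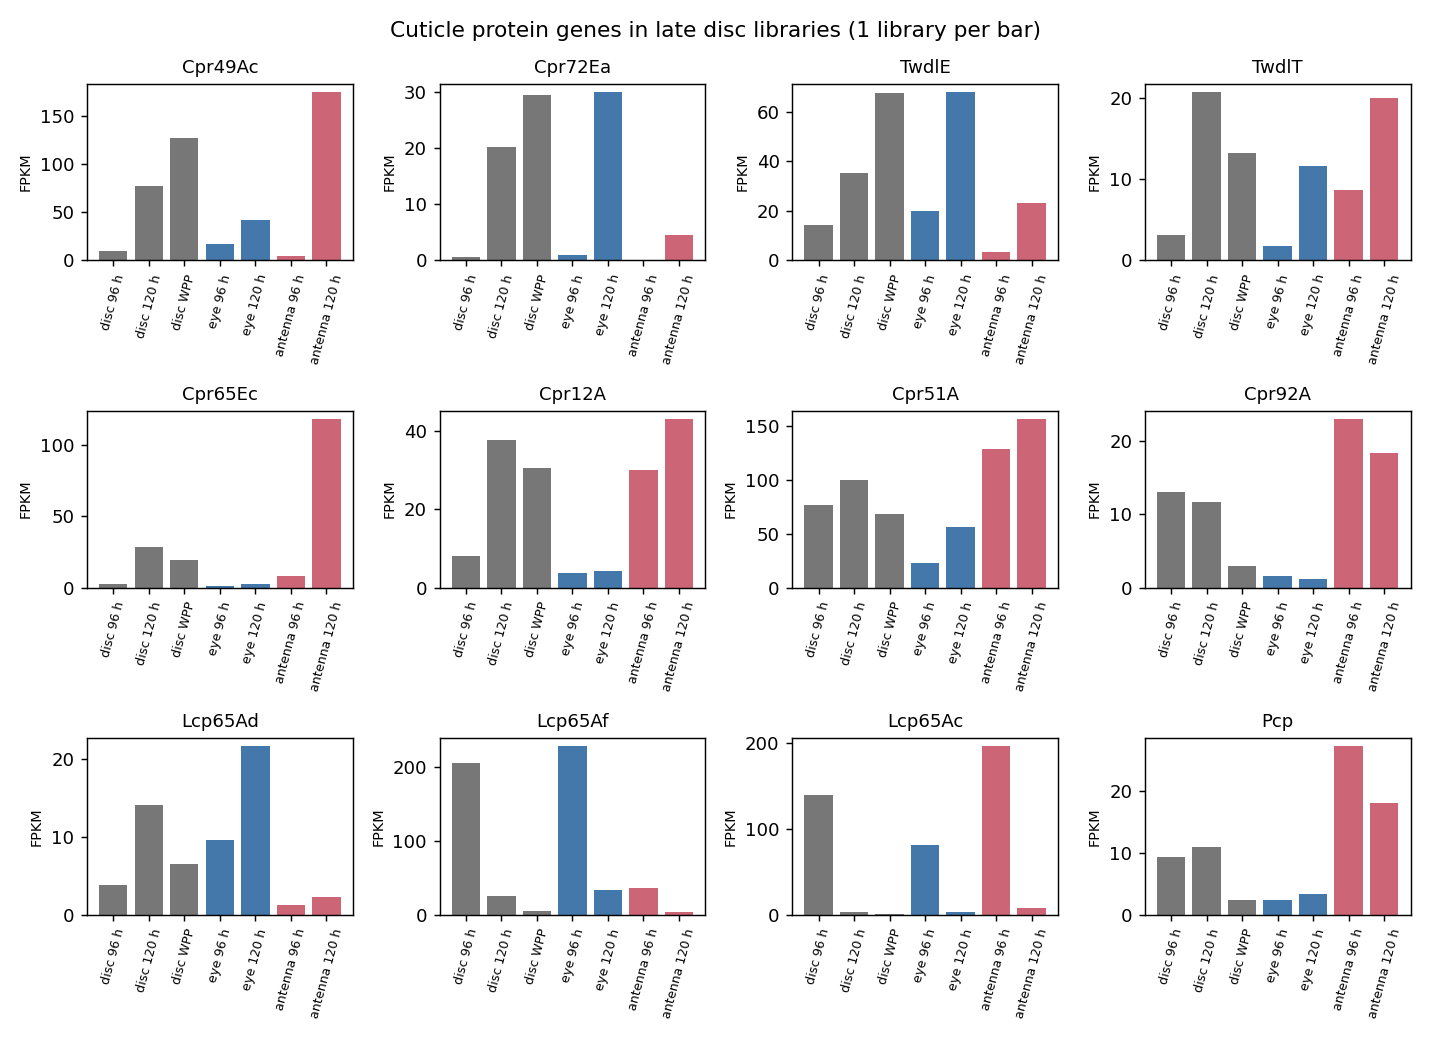
FPKM of 12 cuticle protein genes in whole discs (grey) at 96 h, 120 h and WPP, the eye part (blue) and the antenna part (red) at 96 and 120 h, with 1 library per bar and its own axis per gene. Cpr72Ea, TwdlE and Lcp65Ad are higher in the eye part at 120 h, and Cpr65Ec, Cpr12A, Cpr51A, Cpr92A and Pcp in the antenna part.

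At white puparium formation, when the larval cuticle has just become the puparium, the disc was compared with the disc at 120 h. Only Cpr66D and Ccp84Af were higher by the size rule, and 8 genes were lower, against 3.5% and 6.48% of all genes. After median-ratio scaling the counts were 3 and 6, and with libraries scaled to an equal sum 1 and 8. Cpr66D stood at 48.6 FPKM against 16.3, and Ccp84Af at 5.57 against 1.68.

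By name the lower group, close in size to the share over all genes, held 5 Lcp genes, 2 Cpr genes and Pcp. Lcp4 was at 0.224 FPKM against 14.9 at 120 h, Lcp1 at 0.566 against 6.51, Lcp9 at 4.20 against 27.3, Lcp65Af at 4.72 against 25.9 and Lcp65Ad at 6.52 against 14.1. The others were Pcp at 2.42 against 10.9, Cpr92A at 2.89 against 11.7 and Cpr100A at 1.34 against 5.88. Other genes above 20 FPKM at 120 h differed by less than the rule asks: Cpr49Ac was at 127 against 76.7 FPKM, Cpr51A at 67.9 against 99.9, Cpr12A at 30.5 against 37.6, Cpr72Ea at 29.5 against 20.2 and Cpr65Ec at 19.0 against 28.6. TwdlE, at 67.7 against 35.2 FPKM, differed by slightly less than the rule asks.

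The genes named for pupal, adult or ecdysone-dependent cuticle were low in the WPP disc. Edg78E stood at 0.229 FPKM, Edg91 at 0.275, Pcp at 2.42 and Acp65Aa was listed at 0. The WPP library listed 42.7% of the cuticle genes at 0, against 20.4% in the disc at 120 h. Over all genes the shares were 9.01% and 3.45%, and the part of this difference in the cuticle values was not tested. Summed fat body genes stood at 498 FPKM at WPP against 47.6 at 120 h, and muscle genes at 362 against 480.1. Of the muscle sums Tm1 alone made up 300 FPKM at WPP and 277 at 120 h. By the size rule 6 of 11 muscle genes were lower and 0 higher, and 4 of 7 fat body genes higher and 0 lower. Over all genes 6.48% were lower and 3.5% higher. The part of the fat body and muscle genes in the cuticle values was not tested either.

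Near-identical copies limit single values in 4 sets, whose members were taken from their symbols and from general knowledge of the Lcp genes, as no sequences were at hand. For these the sum over a set is the safer value. Lcp3 and Lcp4 together stood at 36862, 88134 and 14765 FPKM in larvae at 72, 96 and 120 h, and Lcp1, Lcp2 and Lcp1Psi at 5214, 32783 and 22147. Lcp65Ag1, Lcp65Ag2 and Lcp65Ag3 summed to 4097 and 385 FPKM at 72 and 96 h and to less than 0.001 at 120 h, and Cpr67Fa1 with Cpr67Fa2 to 5278, 948 and 9.01. In the whole disc at 96 h the 4 sums were 99.7, 37.2, 10.1 and 3.15 FPKM. Lcp1Psi was given 4.06 FPKM there but was listed at 0 in all 3 larval libraries, where Lcp1 and Lcp2 were far higher. Of the 103 genes 17 overlap a gene on the opposite strand, Pcp, TwdlE, TwdlX and Lcp9 among them.

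Other cuticle genes were followed in lists of 8 cuticle or chitin-binding proteins, 15 genes of chitin synthesis, order and turnover, 7 of tanning, 6 of the apical matrix and its regulators and 9 ecdysone-regulated factors. In the larva at 96 h against 72 h, 6 of the 8 other cuticle proteins were lower and 0 higher, against 11.8% and 6.67% of all genes. Vajk2 and Vajk3, members of another cuticle protein family, stood at 3459 and 3063 FPKM at 72 h, 1612 and 1204 at 96 h, and 153 and 124 at 120 h. In the same larvae 4 of 7 tanning genes were higher at 120 h against 96 h and 0 lower, against 18.8% and 6.18% of all genes. Ddc, the dopa decarboxylase gene, was at 7.22, 29.4 and 280.1 FPKM at 72, 96 and 120 h.

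With the mouthparts 4 of 7 tanning genes and 4 of the 8 other cuticle proteins were higher than in the disc without them, and 0 of either lower. Of all genes 6.62% were higher and 1.2% lower. The tanning genes were ple, tyrosine hydroxylase, at 78.4 against 23.5 FPKM, Ddc at 32.7 against 10.7, e at 12.4 against 2.36 and Pu at 68.0 against 31.8. The pigmentation gene y, at 48.1 against 24.1 FPKM, did not pass the rule. In the disc at 96 h against 72 h, 4 tanning genes and 4 other cuticle proteins were lower, and 0 and 2 higher. The shares over all genes were 7.96% lower and 3.62% higher. The chitin synthase gene kkv, which makes the fibres themselves, was at 80.6, 75.1 and 58.3 FPKM in whole discs at 72, 96 and 120 h, well inside 2-fold.

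From 96 to 120 h in the disc fit, Cht5 and Cht10, chitinases of moulting, rose by 2.34 (SE 0.24, limma adjusted p = 0.0207) and 1.3, Idgf3 and Idgf6, chitinase-related growth factor genes, fell by 1.32 and 1.65, and Vajk3 fell by 2.58. In the apical matrix list neo rose by 1.39, as 1 of 6. Of the ecdysone-regulated factors Hr3, Blimp-1 and Eip78C rose, 3 of 9. No tanning gene passed (0 of 5 tested). Among all genes tested 0.947% rose and 1.17% fell.

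Between the parts, Idgf3 and Idgf4 were lower in the eye part, with differences of -1.3 and -1.89, as 2 of 15 chitin genes, and limma called 0 genes in the other 4 lists. The shares over all genes tested were 1.75% higher and 1.39% lower. At WPP against 120 h 3 of 6 apical matrix genes, 2 of 7 tanning genes, 2 of 9 ecdysone-regulated factors, 1 of 15 chitin genes and 1 of 8 other cuticle proteins were higher, and 1, 0, 1, 2 and 1 lower. Over all genes 3.5% were higher and 6.48% lower there. Against the larva, the disc fit called 5 of 15 chitin genes higher and 4 lower, 3 of 5 apical matrix genes and 2 of 9 ecdysone-regulated factors higher, 3 of 8 other cuticle proteins and 1 of 7 tanning genes lower. Of all genes in that fit 35.9% were higher and 14.2% lower, so the higher counts of the chitin and ecdysone lists do not set them apart.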

How the data were processed

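The authors deposited 1 table of FPKM values for 10893 FlyBase identifiers in 12 libraries. Per the submitters' processing notes the tools were TopHat and Cufflinks and the build was dm3. The sources used here do not give versions, annotation, strand setting or how genes entered the table. The unit is in no header; FPKM was read from the use of Cufflinks and from the values, which are not whole. Read depth is unknown, which leaves counting error without an interval, and an exact 0 is called listed at 0. The deposited cluster number of each gene is a score-like label of the authors and only described.

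Symbols were found for 10308 identifiers (94.6%). The annotation BDGP6.54, which is not the authors' build, gave only neighbours (at most 2 other protein-coding genes between them) and overlaps. Limma 3.58.1 in R 4.3.3 (lmFit, eBayes with trend and robust) was run on log2(FPKM + 1) of genes that reached 1 FPKM in 2 or more libraries of a fit. One fit had tissue and age over eye, antenna and whole-disc libraries of 96 and 120 h, the other over discs and larvae of 72, 96 and 120 h. Each had 6 libraries and 2 residual degrees of freedom, with two-sided p-values adjusted by Benjamini-Hochberg over all genes tested. The error holds any true interaction, and p-values reflect only how these libraries scatter, which may be technical. The fit of 120 h against 96 h was also run on simulated data with equal noise for every gene and no tissue differences. That run cannot show how the fit performs on these libraries. Tables were made with Python 3.11.15 and pandas 2.3.3.

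Members and lists were chosen with earlier results of these data known. Named were all genes past limma (up to 15 in each direction), up to 10 in each direction past the size rule for a pair, the highest member of each family and the highest of all in each library, and all Ccp84A, Edg, Pcp and Acp65A genes; other genes were named as family examples after their values were seen.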

Additional observations from a re-analysis of the deposited data

Results flagged for a closer look

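In 6 cuticle genes whole larva and whole disc moved in opposite directions past the size rule from 72 to 96 h, with 1 library each, so the difference was not tested. Over all genes 0.964% did so. In larvae and discs respectively, the log2 change was 3.88 and -2.37 for Cpr49Ac, 1.72 and -2.92 for Cpr60D, and 1.5 and -8.41 for Cpr65Av. It was 1.6 and -3.37 for Cpr65Ay, 1.1 and -3.37 for Cpr67B, and 8.69 and -1.04 for Cpr78E. In FPKM, Cpr65Av went from 234 to 664 in larvae and from 458 to 0.350 in discs.

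From 96 to 120 h Lcp65Ad was the 1 such gene (0.312% of all genes), at -1.92 in the larva (9.63 to 1.81 FPKM) and 1.64 in the whole disc (3.85 to 14.1 FPKM). Between the parts of the disc, Cpr100A changed by 1.06 in the eye part (2.72 to 6.75 FPKM) and by -4.04 in the antenna part (44.1 to 1.74 FPKM), as 1 such gene against 0.367% of all genes. Neither difference was tested.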

How the results depend on the processing

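Counts of cuticle genes past each test or rule were recomputed under other pseudocounts, filters and scalings, without near-identical copies and, for the fits, without each library. No paired analysis was possible because no group had replicates or replicate numbers; ages and tissues already enter the fits. Scaling each library to a sum of 1000000 gave 32 calls in place of 8 for 120 h against 96 h, 20 in place of 5 for eye against antenna part and 56 in place of 33 for disc against larva; over all genes the calls went from 86 higher and 106 lower to 379 and 460, from 159 and 126 to 410.0 and 456, and from 3588 and 1416 to 5215 and 1317. The cause was not tested. For eye against antenna part, 3 genes were called with no filter and 3 with eBayes without trend and robust. A floor of 20 FPKM left 47 in place of 72 calls for the disc at 96 h against 72 h and 3 in place of 10 for WPP against 120 h, and a floor of 1 FPKM gave 18 for the latter. Leaving out 1 library gave 0 to 18, 0 to 12 and 20 to 44 calls in the 3 fits; 20 came without the disc at 96 h. Of the 8 genes called for 120 h against 96 h, Cpr72Ea and Cpr11A lost the call with a pseudocount of 5, Cpr72Ea also with eBayes without trend and robust and without either whole disc, and Lcp65Ag1 under 4 alternatives of scaling, filter, pseudocount or eBayes and without either whole disc. Every other total of higher and lower calls stayed within 1.5 times its main value. Counts in 1 direction moved further in places: higher in the disc than in the larva were 8 genes as reported, 4 with a pseudocount of 5 and 3 without the disc at 120 h, and 1 gene rose from 96 to 120 h as reported and 3 with a 5 FPKM filter. Signs were rechecked for the genes past limma and, for pairs, for up to 10 genes in each direction past the size rule. None of these changed sign, and other named differences were not rechecked.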

Other observations

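Markers of other cell types were followed beside the cuticle genes. Of 7 salivary gland genes 6 were higher in the larva at 96 h than at 72 h and 0 lower, and of 7 fat body genes 5 were higher and 0 lower, over the step at which 64 cuticle genes were lower. In the discs with mouthparts against discs at 72 h, 2 of 11 muscle genes, 2 of 7 fat body genes, 1 of 7 tracheal and 1 of 7 salivary gland genes were higher, and 0 of 6 hemocyte genes. None of these lists had a lower gene there by the size rule. Over all genes 6.67% were higher and 11.8% lower in the larva at 96 h against 72 h. With the mouthparts 6.62% were higher and 1.2% lower.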
